A study of Rattus norvegicus with 18 samples.

Results

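The genes described here are 94 genes of vesicle trafficking, endocytosis and the Golgi, of 4736 genes measured in rat thyroid cell lines. They were taken by symbol, from probe sets with exactly 1 gene symbol in the array's annotation: Rab and Arf GTPases, SNAREs (Vamp, Stx and Snap genes), synaptotagmins, COPI subunits, clathrin chains, adaptor subunits, Lamp and Golg genes, and Sec genes. Where a gene had several probe sets, the one with the highest mean over all 18 arrays represented it. The 94 genes had 139 probe sets of 8740 tested, and 34 genes had more than 1. By role they were 28 Rab GTPases, 2 Rab partners that the symbol rule also caught (Rab11fip5 and Rab3ip), 6 Arf GTPases and 14 clathrin and adaptor genes. There were also 5 coat genes, 3 golgins, 2 lysosomal membrane genes, 16 genes grouped as SNAREs (Sec22a among them) and 13 synaptotagmins. The rest were 4 genes of entry into the endoplasmic reticulum (ER) and 1 lipid transfer gene, Sec14l3.

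Membrane traffic moves cargo between compartments in coated vesicles. Arf GTPases recruit coats to membranes, adaptors and clathrin or coatomer select cargo and shape the vesicle, Rab GTPases mark the compartment and recruit tethers such as golgins, and SNAREs drive fusion. Thyrocytes depend on this traffic in both directions: thyroglobulin is secreted through the Golgi to the follicle lumen, is taken up again, and is degraded in lysosomes to release thyroid hormone. Thyroid-stimulating hormone (TSH) acts through a receptor that raises cyclic AMP and is the main regulator of these functions.

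Both lines are established rat thyroid cell lines, and expression was measured on 1-colour Affymetrix arrays as log2 values. FRTL5 is labelled as differentiated; these cells spent 5 days in 5H medium without TSH and received bovine TSH at 0.1 U/L. FRT/TSHR is labelled as de-differentiated, is named for the TSH receptor it carries, was grown in a modified Ham's F12 medium (Coon's), and received bovine TSH at 1 U/L. Cells of both lines were kept without serum for 12 h before stimulation. Each line was sampled untreated (basal), after 30 min and after 17 h of TSH, with 3 biological replicates in each of the 6 groups. Line, medium and TSH dose differ together and cannot be told apart. The labels name no untreated group at either TSH time, so TSH and further time without serum cannot be told apart either. How the receptor was introduced, and whether FRT/TSHR is 1 clone, is not given in the sources used here.

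Markers were read first. Of 6 thyrocyte markers measured, 4 were lower in basal FRT/TSHR than in basal FRTL5 (limma, adjusted p under 0.05), among them thyroglobulin (Tg), which read 9.76 to 11.64 in FRTL5 and 3.95 to 4.46 in FRT/TSHR. The rat Tshr probe set read 6.34 to 6.85 in FRTL5 and 6.35 to 6.90 in FRT/TSHR. All 4 measured epithelial markers (Krt8, Krt18, Cldn3 and Epcam) were higher in FRT/TSHR, and their mean level was 4.87 to 5.25 in FRTL5 and 9.51 to 10.03 in FRT/TSHR; their part in the differences between lines was not tested. Of 6 measured neuroendocrine markers 0 differed between the lines and 4 were in the lowest 25% of probe set means (under 4.29), where arrays separate signal from background poorly. Leukocyte, mesenchymal and endothelial lists differed between the basal lines in 1 of 3 genes (Lyz2, lower), 1 of 7 (Fn1, higher) and 0 of 3. The 3 FRTL5 arrays numbered 1 stood apart in the signal along beta-actin: 3' minus 5' was 1.13 to 1.22 there and -0.14 to 0.28 on the other 15 arrays. All 3 belong to FRTL5, so this signal and the line cannot be fully told apart. Several trafficking genes read apart on those arrays too, and values without them are given for some of these genes only.

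The start regions of the genes on which the results turn are shown first, from RefSeq on the GRCr8 build, 300 bases each from 250 bases before to 50 bases after the annotated start, in the direction of the gene. Of the 94 genes, 81 were in that table. Golgb1 and Lamp1 are shown because both fell in FRTL5 at 17 h of TSH, and Lamp2 and Arf1 because they differed most between the basal lines, one in each direction. Capitals mark the E-box CACGTG, which is bound by basic helix-loop-helix factors such as the lysosomal regulator Tfeb; TGACG on either strand, the half-site of the cyclic AMP response element; and CCAAT on either strand. Golgb1 lies on chr11:77405957-77406256, Lamp1 on chr16:83075014-83075313, Lamp2 on chrX:122087624-122087923 and Arf1 on chr10:44513945-44514244, all on the minus strand.
Golgb1: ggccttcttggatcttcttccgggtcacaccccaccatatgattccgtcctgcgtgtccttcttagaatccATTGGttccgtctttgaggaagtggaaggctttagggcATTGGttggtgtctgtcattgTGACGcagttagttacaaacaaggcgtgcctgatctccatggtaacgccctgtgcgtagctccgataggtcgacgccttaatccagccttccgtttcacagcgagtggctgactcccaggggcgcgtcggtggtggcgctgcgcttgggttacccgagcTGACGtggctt
Lamp1: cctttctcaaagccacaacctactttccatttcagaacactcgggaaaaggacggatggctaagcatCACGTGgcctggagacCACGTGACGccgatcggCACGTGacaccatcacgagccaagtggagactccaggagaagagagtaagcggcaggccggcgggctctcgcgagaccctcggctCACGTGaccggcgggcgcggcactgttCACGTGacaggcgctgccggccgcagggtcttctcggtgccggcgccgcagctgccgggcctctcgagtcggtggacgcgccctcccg
Lamp2: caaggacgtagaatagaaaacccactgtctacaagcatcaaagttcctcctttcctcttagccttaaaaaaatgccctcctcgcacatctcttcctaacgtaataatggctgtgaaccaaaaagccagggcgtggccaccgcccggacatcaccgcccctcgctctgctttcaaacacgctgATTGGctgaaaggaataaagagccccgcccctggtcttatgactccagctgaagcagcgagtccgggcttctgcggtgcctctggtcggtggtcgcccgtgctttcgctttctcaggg
Arf1: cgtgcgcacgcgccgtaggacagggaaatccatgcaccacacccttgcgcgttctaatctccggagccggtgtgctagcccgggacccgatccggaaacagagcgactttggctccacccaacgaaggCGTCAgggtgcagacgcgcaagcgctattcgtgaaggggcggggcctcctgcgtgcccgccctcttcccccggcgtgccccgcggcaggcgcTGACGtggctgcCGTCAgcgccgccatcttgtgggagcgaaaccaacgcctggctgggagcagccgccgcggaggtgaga

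Lamp1 held 5 E-boxes, starting 183, 167, 150, 65 and 38 bases before the start, and 1 TGACG that shares bases with the one at 167. No other promoter of the 27457 in the table held as many. CACGTG was in 6.65% of all promoters, in 8.50% of the 3871 promoters of measured genes and in 6 of the 81 (7.41%): Arf5, Lamp1, Rab5a, Snap29, Stx6 and Syt6. A longer element that contains CACGTG, the CLEAR core of 10 bases, was also searched. It was in 0.277% of all promoters and in 1 of the 81, Snap29, and was absent from Lamp1. Whether Tfeb acts on Lamp1 was not tested. Golgb1 held TGACG on the plus strand at 120 bases before and 39 bases after the start, and Arf1 held 3 copies on either strand at 122, 30 and 18 bases before it. TGACG was in 22.0% of all promoters, 28.5% of those of measured genes and 32 of the 81 (39.5%). The full element TGACGTCA, which contains TGACG, was in 1.91% of all promoters and 3 of the 81 (Ap2b1, Cltb and Vamp1). CCAAT was in 37.7% of all and 34 of the 81; Golgb1 had 2 on the minus strand, at 179 and 141 bases before the start, and Lamp2 had 1, at 68. A match describes these letters in this window and is not a measured binding site.

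The first question was what TSH changed among these genes in FRTL5 cells. At 17 h, 2 of the 94 genes passed against basal, both lower: Golgb1 and Lamp1 (limma with Benjamini-Hochberg adjustment over all probe sets, passing at an adjusted p under 0.05). That is 2.13% of the 94, against 3.56% of all probe sets, of which 1.64% were higher and 1.92% lower. None of the 94 passed upward. The median difference of the 94 was -0.06 on the log2 scale, against 0.01 over all probe sets, and 60 of 94 genes had a lower mean at 17 h. An unadjusted p under 0.05 was reached by 13 of the 94 (12.7% of all probe sets), and the groups did not overlap in 13 (15.4% of all probe sets). These shares are close to the background, which holds all probe sets, whereas each of the 94 genes is represented by its brightest one. Here and below the shares therefore compare unlike sets. In extracts of whole cultures, fewer cells with a transcript and less of it per cell cannot be told apart.

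Golgb1 encodes giantin, a large golgin that spans the space around Golgi membranes and tethers vesicles. In FRTL5 its log2 values were 7.67, 7.69 and 7.73 at basal, 7.49, 7.49 and 7.31 at 30 min, and 6.47, 7.05 and 6.85 at 17 h. Every 17 h array was below every other FRTL5 array. The mean fell from 7.70 ± 0.03 to 6.79 ± 0.30 (SD, n = 3), a log2 difference of -0.91 ± 0.14 (limma SE, adjusted p = 0.0020) and a 1.87-fold decrease. Against 30 min it was -0.64 ± 0.14 (adjusted p = 0.016). At 30 min against basal it was -0.27 ± 0.14 and did not pass.

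The second Golgb1 probe set gave the same picture. It read 7.74, 7.52 and 7.38 at basal and 6.43, 6.96 and 6.67 at 17 h, again without overlap, and fell by 0.86 ± 0.19 (adjusted p = 0.017). Against 30 min it fell by 0.78 ± 0.19 (adjusted p = 0.026). Without the FRTL5 arrays numbered 1, which held the lowest 17 h value of both probe sets, the representative probe set was -0.76 against basal (adjusted p = 0.016) and -0.45 against 30 min (adjusted p = 0.15). Golgb1 still passed against basal with each single array left out, but with only the 6 arrays of that comparison in the fit its adjusted p was 0.056. Against 30 min the call was lost on leaving out 3 of the 6 arrays in turn, with adjusted p up to 0.075 (without the 30 min array of replicate 2), and with only those arrays in the fit (0.11).

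In FRT/TSHR cells Golgb1 did not fall. Its values were 6.73, 6.74 and 6.86 at basal, 7.20, 6.79 and 6.73 at 30 min, and 7.04, 7.10 and 6.96 at 17 h. The 17 h arrays lay above the basal arrays, and the difference of 0.26 ± 0.14 did not pass. The TSH effect at 17 h in FRT/TSHR minus that in FRTL5 was 1.16 ± 0.20 (limma, adjusted p = 0.012). Golgb1 was the only 1 of the 94 genes to pass this test of the difference between the lines, which 0.789% of all probe sets passed. It passed in each of the 12 fits that left out 1 array and in each other alternative run on it. The second Golgb1 probe set gave 1.08 ± 0.26, which did not pass (adjusted p = 0.073). The Golgb1 level at basal was lower in FRT/TSHR than in FRTL5 (-0.92 ± 0.14, adjusted p = 9.5e-05), at 30 min it was also lower (-0.53 ± 0.14, adjusted p = 0.011, and 0.059 without the FRT/TSHR array of replicate 3), and at 17 h the difference of 0.24 ± 0.14 did not pass.

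Lamp1 encodes a heavily glycosylated protein that lines the lysosomal membrane. Its representative probe set read 10.94, 11.24 and 11.06 in FRTL5 at basal, 10.99, 11.08 and 10.94 at 30 min, and 10.46, 10.68 and 10.58 at 17 h. The 17 h arrays lay below all other FRTL5 arrays. The fall from 11.08 ± 0.15 to 10.58 ± 0.11 (SD, n = 3) was 0.50 ± 0.12 on the log2 scale (1.42-fold, adjusted p = 0.030). The call was lost on leaving out 5 of the 6 arrays in turn, with adjusted p up to 0.13 (without the basal array of replicate 2). It was also lost without the FRTL5 arrays numbered 1 (-0.52, adjusted p = 0.098), after another quantile normalization (0.22), with an intensity trend in the variance (0.068) and with only the 6 arrays in the fit (0.14).

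The other 3 Lamp1 probe sets did not pass at 17 h in FRTL5. Their differences were -0.07, -0.10 and -0.18 (adjusted p 0.91, 0.79 and 0.49), and 1 of them was in the lowest 25% of means. All 3 differences were downward, but their mean levels were 6.50, 3.99 and 5.49, far under the representative one (10.58 in FRTL5 at 17 h). The Lamp1 fall therefore passed in only 1 of 4 probe sets, and the part of the low levels in this was not tested. In FRT/TSHR the representative Lamp1 probe set read 10.37, 10.36 and 10.39 at basal, 10.04, 10.34 and 9.89 at 30 min, and 10.50, 10.64 and 10.31 at 17 h. The 17 h and basal arrays overlapped there, and the difference was 0.11 ± 0.12. The 17 h effect of TSH differed between the lines by 0.61 ± 0.17, with an adjusted p of 0.13 without and 0.022 with the replicate block described next.

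**Figure D1:**
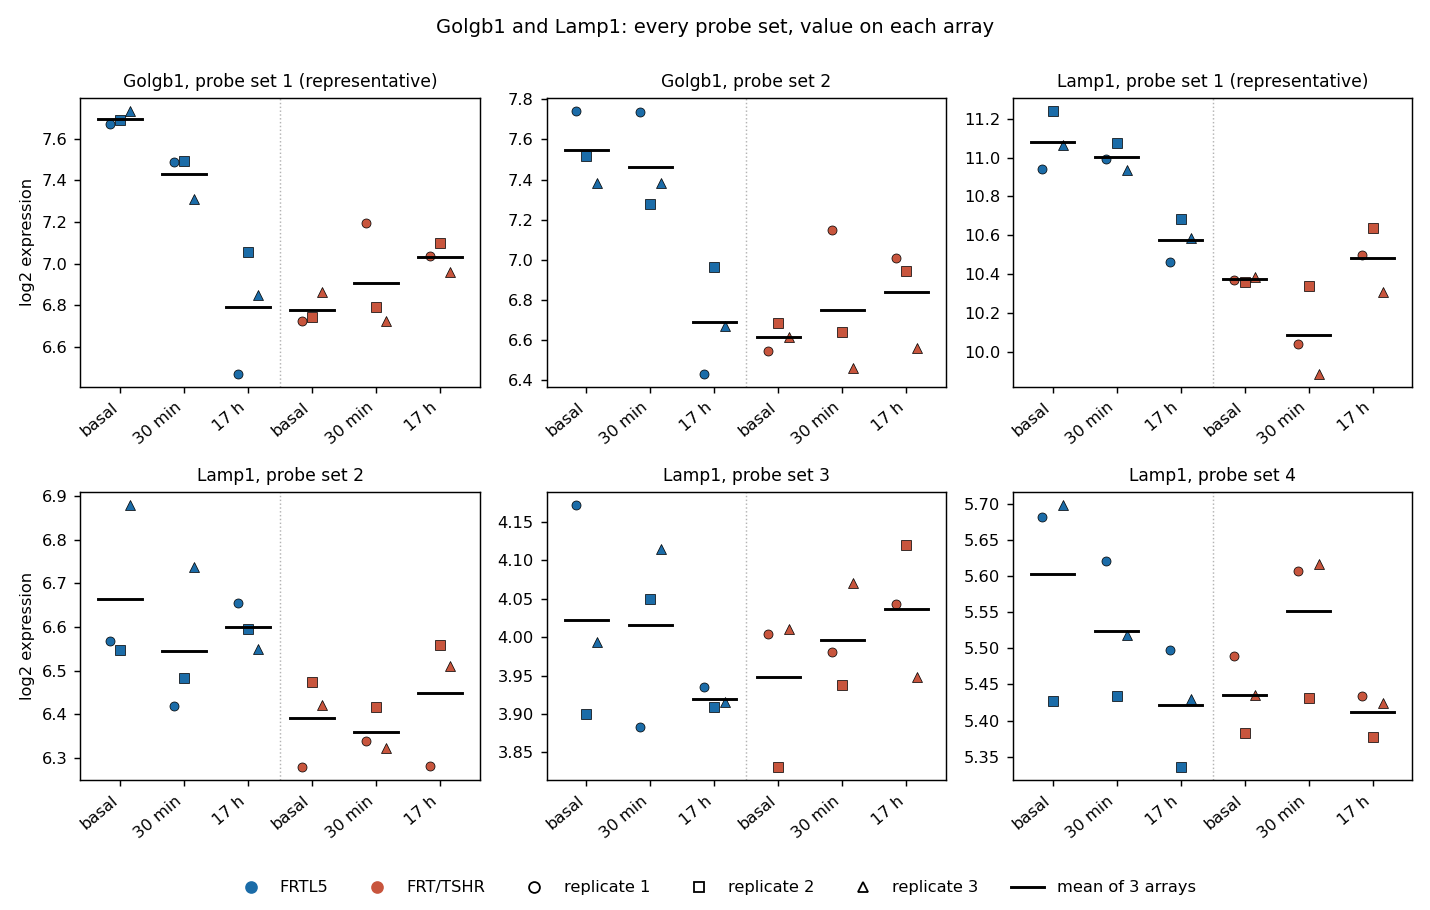
Log2 expression on each of the 18 arrays (points; shape gives the replicate, colour the line) and group means of 3 arrays (bars), for both Golgb1 and all 4 Lamp1 probe sets. Both Golgb1 probe sets are lowest at 17 h within FRTL5, while only the representative Lamp1 probe set (10.46 to 10.68 at 17 h against 10.94 to 11.24 at basal) shows the fall.

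Arrays with the same replicate number deviated together within each line, so the replicate number within the line was also used as a block. In FRTL5 the correlations were 0.69 to 0.80 for the arrays numbered 1 and 0.15 to 0.47 for the others. An offset of the arrays numbered 1 alone was not told apart from pairing. With the block, 11 of the 94 genes passed in FRTL5 at 17 h, 9 lower and 2 higher. Over all probe sets 9.92% passed (5.77% lower and 4.15% higher). Counted in either direction, the share of the 94 is near that background. The 9 that passed downward are named here, and a pattern among them was not tested. They were Golgb1 and Lamp1, the cis-Golgi golgin Golga2 (GM130), the AP-2 adaptor subunits Ap2b1 and Ap2m1 of clathrin-mediated endocytosis, the Rab11 effector Rab11fip5 of recycling endosomes, and the GTPases Rab12, Rab14 and Rab33b. The 2 upward were Sec61a1, the channel subunit of the ER translocon, and Stx7, a SNARE of late endosomes.

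The values of these genes show how much the replicate number carries. Rab14, a GTPase of Golgi and endosomes, read 7.40, 6.79 and 7.03 at basal, 6.56, 6.57 and 6.48 at 30 min, and 6.56, 6.35 and 6.52 at 17 h (17 h against basal -0.60, adjusted p = 0.15 without and 0.0060 with the block). Its values were already low at 30 min, where the difference of -0.54 did not pass. Golga2 read 8.49, 8.73 and 8.56 at basal and 8.12, 8.26 and 8.22 at 17 h (-0.39, adjusted p = 0.11 and 0.0081). Its groups did not overlap.

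Ap2b1, the beta subunit of AP-2, read 7.26, 7.39 and 7.29 at basal and 6.89, 6.72 and 6.90 at 17 h (-0.47, adjusted p = 0.11 without and 0.011 with the block). Ap2b1 has 3 probe sets and Rab33b 2, and only the representative ones are given here. Rab12, a GTPase of recycling endosomes and lysosomes, differed by -0.40 (adjusted p = 0.089 and 0.016), Rab33b, a Golgi GTPase, by -0.42 (0.079 and 0.0066), Ap2m1 by -0.34 (0.31 and 0.048) and Rab11fip5 by -0.47 (0.30 and 0.025). In Ap2m1 and Rab11fip5 the basal and 17 h arrays overlapped.

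Stx7 had the largest difference of the 94 at 17 h. It read 5.44, 5.22 and 5.71 at basal, 5.59, 5.36 and 6.64 at 30 min, and 5.80, 6.78 and 6.90 at 17 h. Every 17 h array was above every basal array, but the 17 h arrays spanned over 1 log2 unit (6.49 ± 0.60, SD, n = 3). The difference was 1.04 ± 0.30 (adjusted p = 0.084 without and 0.0094 with the block). Sec61a1 read 6.65, 7.61 and 7.85 at basal and 6.93, 8.46 and 8.17 at 17 h, higher at 17 h within each replicate number (0.48, adjusted p = 0.69 and 0.021), although the groups overlapped.

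Between 30 min and 17 h in FRTL5, 2 of the 94 passed, both lower, against 4.21% of all probe sets (2.35% lower). Besides Golgb1 this was Ap3m2, a medium chain of the AP-3 adaptor that sorts cargo to lysosome-related organelles. Ap3m2 read 7.11, 7.02 and 7.21 at 30 min and 6.71, 6.88 and 6.76 at 17 h, a difference of -0.33 ± 0.09 (adjusted p = 0.041). The call was lost on leaving out any 1 of the 6 arrays (adjusted p up to 0.17, without the 30 min array of replicate 3) and without the arrays numbered 1 (0.20). The second Ap3m2 probe set differed by -0.33 (adjusted p = 0.045) and also passed against basal (-0.46, adjusted p = 0.0075), where the representative one did not (-0.18, adjusted p = 0.41). With the block 8 of the 94 passed, against 10.5% of all probe sets: Ap3m2, Golga2, Golgb1, Lamp1, Rab11fip5 and Rab12 downward, and Sec61a1 and Syt11 upward.

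At 30 min of TSH in FRTL5, 0 of the 94 genes passed, against 0.24% of all probe sets; 4 had an unadjusted limma p under 0.05, against 2.76% of all. The 3 with the smallest p were Rab14 (-0.54), Arf2 (0.40) and Sec31a (-0.46), the last an outer subunit of the COPII coat that reads 6.92, 6.99 and 6.83 at basal and 6.63, 6.65 and 6.10 at 30 min. Rab5a, the GTPase of early endosome fusion, read 5.32, 5.97 and 6.04 at basal, 5.45, 5.76 and 5.85 at 30 min, and 5.16, 5.95 and 5.92 at 17 h. Its lowest value in each group was on the array numbered 1, and neither TSH difference (-0.09 at 30 min and -0.10 at 17 h) passed.

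In FRT/TSHR cells none of the 94 genes passed at any time, and 0% of all probe sets did, with or without the block. The numbers with an unadjusted limma p under 0.05 were 3 at 30 min (2.38% of all probe sets), 3 at 17 h (1.24%) and 2 for 17 h against 30 min (2.05%). The smallest p at 30 min were those of the clathrin light chain Cltb (0.25), Lamp1 (-0.28) and Vamp1 (0.26), and at 17 h those of Stx3 (0.38), Syt10 (0.24) and Vamp1 (0.25). Between 30 min and 17 h they were Lamp1 (0.39), Vamp5 (-0.21) and Stx3 (0.28). Stx3, a SNARE of apical membranes in epithelia, read 5.21, 5.57 and 5.37 at basal and 5.73, 5.67 and 5.89 at 17 h, without overlap. The TSH effect at 30 min differed between the lines in 0 of the 94, against 0.0343% of all probe sets, and 1 (Vamp1) had an unadjusted p under 0.05, against 2.6%. At 17 h with the block, 2 of the 94 differed between the lines in their TSH effect, Golgb1 and Lamp1, against 4.18% of all probe sets.

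**Figure D2:**
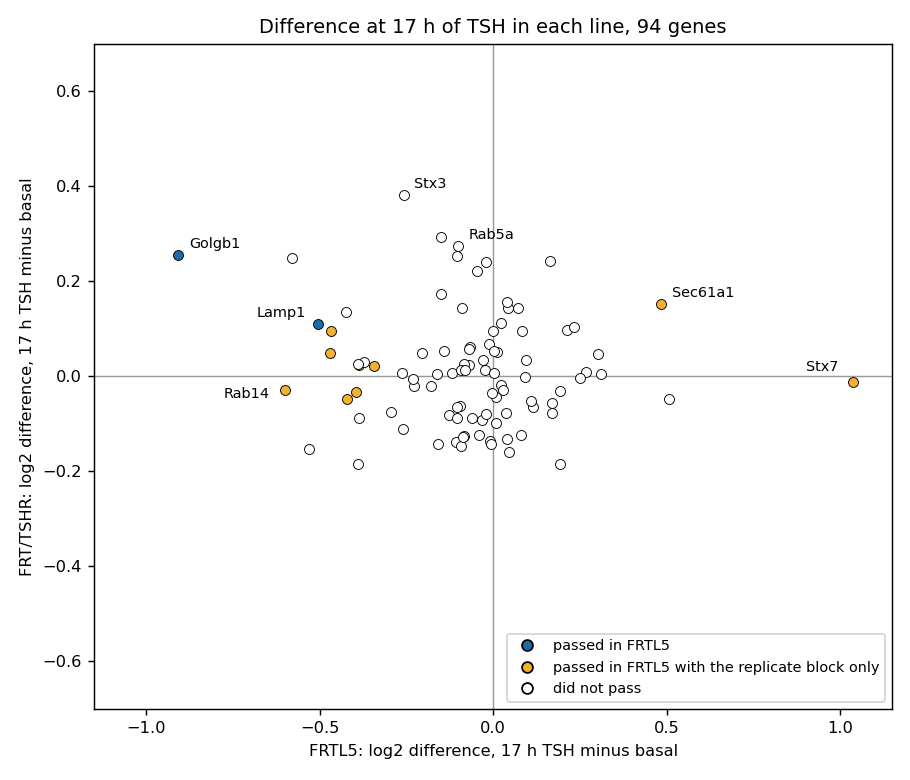
Log2 difference between 17 h of TSH and basal for each of the 94 genes (points) in FRTL5 (horizontal axis) and FRT/TSHR (vertical axis); the axes have different ranges. Golgb1 lies at -0.91 in FRTL5 and 0.26 in FRT/TSHR, and Stx7, which passed only with the replicate block, at 1.04 in FRTL5 and -0.01 in FRT/TSHR.

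The next question was how the lines differ. In basal cells 27 of the 94 genes (28.7%) differed, 12 higher and 15 lower in FRT/TSHR, against 25.5% of all probe sets (13.3% higher and 12.2% lower). At 30 min it was 26 (27.7%), 13 in each direction, against 22.8% (11.3% and 11.4%), and at 17 h it was 27 (28.7%), 17 higher and 10 lower, against 20.4% (11.5% and 8.94%). The lines did not overlap in 38, 39 and 38 genes, against 37%, 33% and 33.2% of all probe sets. The background also holds secondary and dim probe sets, while 10 of the 94 were in the lowest 25% of means, so the sets are unlike. These 3 comparisons use different arrays of the same lines and a common estimate of the spread. Arrays with the same replicate number deviated together, so the comparisons are not independent. In all 3, 18 of the 94 (19.1%) passed in the same direction, against 14.8% of all probe sets. Of these, 10 were higher in FRT/TSHR (Ap1s1, Ap2a2, Arf1, Arf4, Arf5, Arf6, Rab1a, Rab3ip, Syt17 and Syt8) and 8 were lower (Copz2, Lamp2, Rab12, Rab13, Rab38, Rab3a, Sec11a and Syt3). A further 21 passed in 1 or 2 states and 55 (58.5%) in none, against 68.4% of all probe sets in none. None passed in opposite directions, as 16 of 8740 probe sets did. Without the 17 h FRT/TSHR array of replicate 3, 17 genes passed at 17 h in place of 27.

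**Figure D3:**
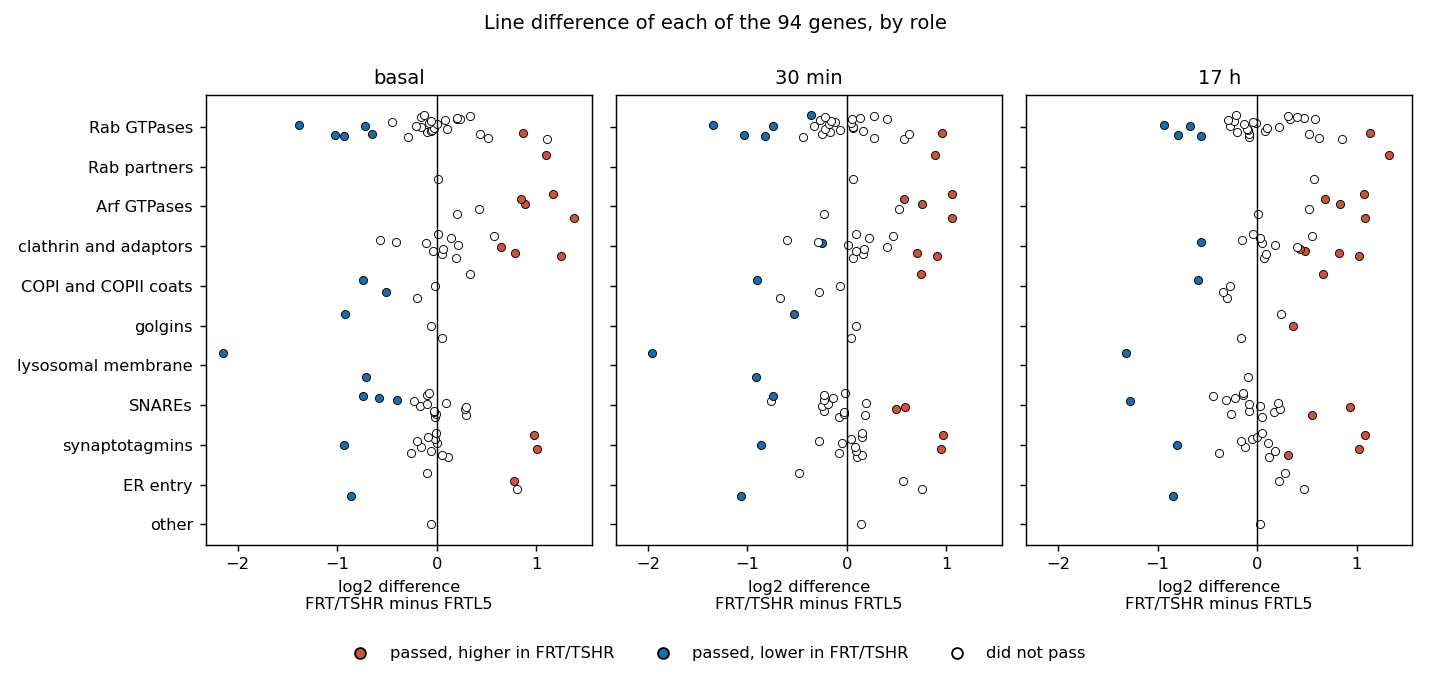
Log2 difference FRT/TSHR minus FRTL5 for each of the 94 genes (points) at basal, 30 min and 17 h, by role; filled points passed (adjusted p under 0.05) and open points did not. The 4 Arf GTPases that passed lie to the right in each panel, and the leftmost point in each panel is Lamp2, at -2.15, -1.96 and -1.32.

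Arf GTPases differed in 1 direction only among those that passed. Of 6 Arf GTPases 4 passed upward in each state and 0 passed downward, where 714 of 8740 probe sets passed upward in all 3 states. Arf1, which recruits the COPI coat to the Golgi, read 8.96 to 9.65 over the 9 FRTL5 arrays (median 9.35) and 10.33 to 10.62 over the 9 FRT/TSHR arrays (median 10.52), and the lines did not overlap. Its differences were 1.38 ± 0.16, 1.06 ± 0.16 and 1.08 ± 0.16 at basal, 30 min and 17 h (adjusted p at most 9.8e-05), and at basal it was 2.61-fold higher.

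Arf4 and Arf5, class II Arfs of the early secretory pathway, behaved alike in these arrays. Arf4 read 8.47 to 9.11 in FRTL5 and 9.29 to 10.02 in FRT/TSHR, with differences of 0.89, 0.76 and 0.84 (adjusted p 0.0048, 0.016 and 0.0092). Arf5 read 8.84 to 9.48 and 9.57 to 10.06, with 0.85, 0.58 and 0.68 (adjusted p 0.00078, 0.015 and 0.0058). Neither gene had overlapping lines.

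Arf6, which acts at the plasma membrane and in endocytic recycling, read 8.09 to 8.70 in FRTL5 and 9.11 to 9.89 in FRT/TSHR. Its differences were 1.17, 1.05 and 1.07 (adjusted p 0.00058, 0.0015 and 0.0015). At 30 min the calls of Arf4 and Arf5 were lost on leaving out 2 and 3 of the 6 arrays in turn (adjusted p up to 0.096, without the FRT/TSHR array of replicate 3, and 0.061, without the FRTL5 array of replicate 1). At 17 h Arf4's was lost on 2 of 6 (up to 0.058, without the FRT/TSHR array of replicate 3). All 4 Arf genes passed in each state without the FRTL5 arrays numbered 1. Arf2 and Arf3, class I Arfs like Arf1, did not pass in any state. Arf3 read 5.04, 5.22 and 5.22 on the FRTL5 arrays numbered 1 and 6.11 to 6.68 on the other 6 FRTL5 arrays, against 6.10 to 6.78 in FRT/TSHR.

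**Figure D4:**
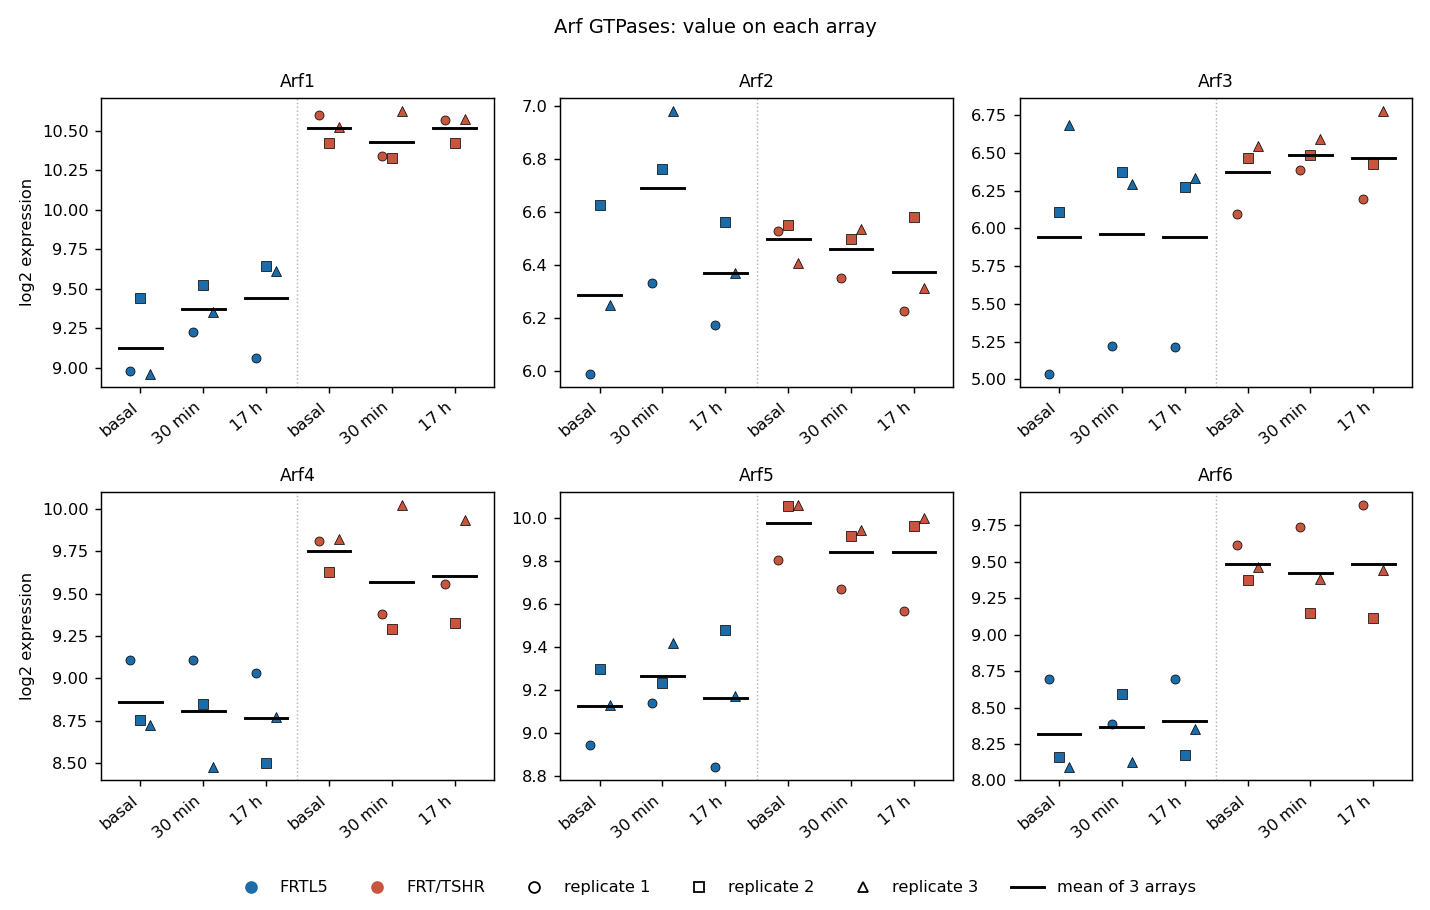
Log2 expression of the 6 Arf GTPases on each array (points) with group means of 3 arrays (bars); each panel has its own vertical range. Arf1, Arf4, Arf5 and Arf6 show FRT/TSHR arrays above all FRTL5 arrays, whereas Arf2 and Arf3 overlap, and the low Arf3 values in FRTL5 are the arrays numbered 1.

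Among the 14 clathrin and adaptor genes, Ap1s1 and Ap2a2 were higher in FRT/TSHR in all 3 states, as 714 of 8740 probe sets were. Ap1s1, the small subunit of the AP-1 adaptor of the trans-Golgi network, read 6.88 to 7.34 in FRTL5 and 7.98 to 8.48 in FRT/TSHR, and its lines did not overlap. Its differences were 1.25 ± 0.12, 0.91 ± 0.12 and 1.03 ± 0.12 (adjusted p at most 3.8e-05). Ap2a2, an alpha subunit of AP-2, read 5.86 to 6.27 and 6.51 to 7.09, with differences of 0.78, 0.71 and 0.82 (adjusted p at most 0.0011).

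A further 5 genes of this role passed in a single state by their representative probe set. Ap2s1, the small AP-2 subunit, was higher at basal (0.64, adjusted p = 0.023, with overlapping arrays), Ap3m2 lower at 30 min (-0.25, adjusted p = 0.044), and at 17 h Ap2b1 (0.48, adjusted p = 0.031) and Ap2m1 (0.43, adjusted p = 0.046) were higher and Ap4s1, the small AP-4 subunit, lower (-0.56, adjusted p = 0.024). Each of these 5 calls was lost in at least 3 of the 6 fits that left out 1 array: the highest adjusted p were 0.11 for Ap2s1 (without the FRT/TSHR array of replicate 1), 0.18 for Ap3m2 (without the FRTL5 array of replicate 3), 0.17 for Ap2b1 (without the FRT/TSHR array of replicate 3), and 0.22 for Ap2m1 and 0.13 for Ap4s1 (both without the FRTL5 array of replicate 1). The second Ap3m2 probe set was lower at basal (-0.50, adjusted p = 0.00032) and at 30 min (-0.32, adjusted p = 0.012), and the second Ap2s1 probe set was higher at basal (0.91, adjusted p = 0.041). Of the other 2 Ap2b1 probe sets neither passed at 17 h (-0.03 and 0.19). The clathrin heavy chain Cltc (0.58 at basal), both light chains Clta and Cltb, and Ap1b1, Ap1s3, Ap3m1 and Snap91 passed in no state. Ap1s3 was in the lowest 25% of means.

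Lamp2, the second major lysosomal membrane protein, had the largest line difference of the 94 at basal. It read 9.30, 8.48 and 7.59 in FRTL5 at basal, 9.06, 8.16 and 7.42 at 30 min, and 8.11, 7.66 and 7.86 at 17 h, against 6.08 to 6.70 over the 9 FRT/TSHR arrays. The lines did not overlap, but the FRTL5 arrays at basal and 30 min spread widely, with the arrays numbered 1 highest (SD 0.86 and 0.82, n = 3). The differences were -2.15 ± 0.38, -1.96 ± 0.38 and -1.32 ± 0.38 (adjusted p 0.00040, 0.00098 and 0.020), a 4.43-fold lower level at basal. Without the arrays numbered 1 they were -1.72, -1.54 and -1.20, and all passed. At 17 h the call was lost on leaving out 3 of the 6 arrays in turn (adjusted p up to 0.070, without the FRTL5 array of replicate 1). The other 2 Lamp2 probe sets were also lower at basal (-1.69 and -2.02) and at 30 min (-1.59 and -1.67), and at 17 h their differences of -0.94 and -1.02 did not pass.

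Lamp1 was lower in FRT/TSHR at basal (-0.71 ± 0.12, adjusted p = 0.00031) and at 30 min (-0.91 ± 0.12, adjusted p = 2.9e-05). At 17 h, where Lamp1 had fallen in FRTL5, the difference was -0.10 ± 0.12 and the arrays overlapped. The other 3 Lamp1 probe sets passed neither at basal (-0.27, -0.07 and -0.17) nor at 30 min (-0.19, -0.02 and 0.03).

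Of the 28 Rab GTPases 21 passed in no state, 4 were lower in FRT/TSHR in all 3 states and 1 was higher in all 3. Over all probe sets 68.4% passed in no state and 14.8% in all 3, so these counts are near the background. Rab13, a GTPase of junctional and recycling traffic in epithelia, read 7.02 to 7.58 in FRTL5 and 6.16 to 6.54 in FRT/TSHR, with differences of -1.02 ± 0.12, -1.04 ± 0.12 and -0.80 ± 0.12 (adjusted p at most 0.00013). Rab12 read at least 7.38 in FRTL5 and at most 7.32 in FRT/TSHR (-0.93, -0.83 and -0.56). Rab38, which serves lysosome-related organelles, read 5.03 to 5.44 and 4.24 to 4.74 (-0.72, -0.74 and -0.67). None of these 3 had overlapping lines. The second Rab38 probe set, in the lowest 25% of means, passed only at 17 h (-0.29).

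Rab3a, a GTPase of regulated exocytosis, read 5.93 to 7.24 in FRTL5 and 5.14 to 6.01 in FRT/TSHR, with the lowest FRTL5 value in each group on the array numbered 1. Its differences were -1.38 ± 0.30, -1.34 ± 0.30 and -0.93 ± 0.30 (adjusted p 0.0024, 0.0032 and 0.037), and the lines overlapped only at 17 h. That last call was lost on leaving out 4 of the 6 arrays in turn (adjusted p up to 0.18, without the FRTL5 array of replicate 2). Without the arrays numbered 1 the differences were -1.58, -1.54 and -1.32.

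Rab1a, which acts between the ER and the Golgi, was the Rab higher in all 3 states. It read 4.26 to 4.86 in FRTL5 and 5.11 to 6.11 in FRT/TSHR (0.87, 0.96 and 1.13; adjusted p 0.021, 0.012 and 0.0045). Its basal call was lost on leaving out 3 of 6 arrays (up to 0.11, without the FRT/TSHR array of replicate 1) and its 30 min call on 1 (0.072, likewise without replicate 1). Without the FRTL5 arrays numbered 1 its basal adjusted p was 0.076. Rab3ip (Rabin8), the exchange factor that activates Rab8, read 5.09 to 6.13 and 6.23 to 7.30 (1.10, 0.89 and 1.32; adjusted p 0.0089, 0.035 and 0.0029). Its call at 30 min was lost on leaving out 4 of 6 arrays (up to 0.18, without the FRTL5 array of replicate 3).

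Rab14 was lower at basal only (-0.65, adjusted p = 0.025) and Rab8b at 30 min only (-0.36, adjusted p = 0.033). These calls were lost on leaving out 3 and 4 of 6 arrays (up to 0.15, without the FRT/TSHR array of replicate 1, and 0.12, without the FRTL5 array of replicate 2). Rab5a did not pass (0.21, 0.40 and 0.58; adjusted p 0.56, 0.22 and 0.060), although its second probe set did at 17 h (0.49, adjusted p = 0.016). In Rab11a, a GTPase of recycling endosomes, 1 other probe set passed at 30 min (0.64) and at 17 h (0.91), where the representative one gave 0.28 and 0.63 and did not pass. Rab7a, a GTPase of late endosomes, gave -0.16, -0.22 and 0.40. Rab10, with basal FRTL5 values of 9.38, 8.67 and 7.12, gave 1.11 at basal without passing.

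**Figure D5:**
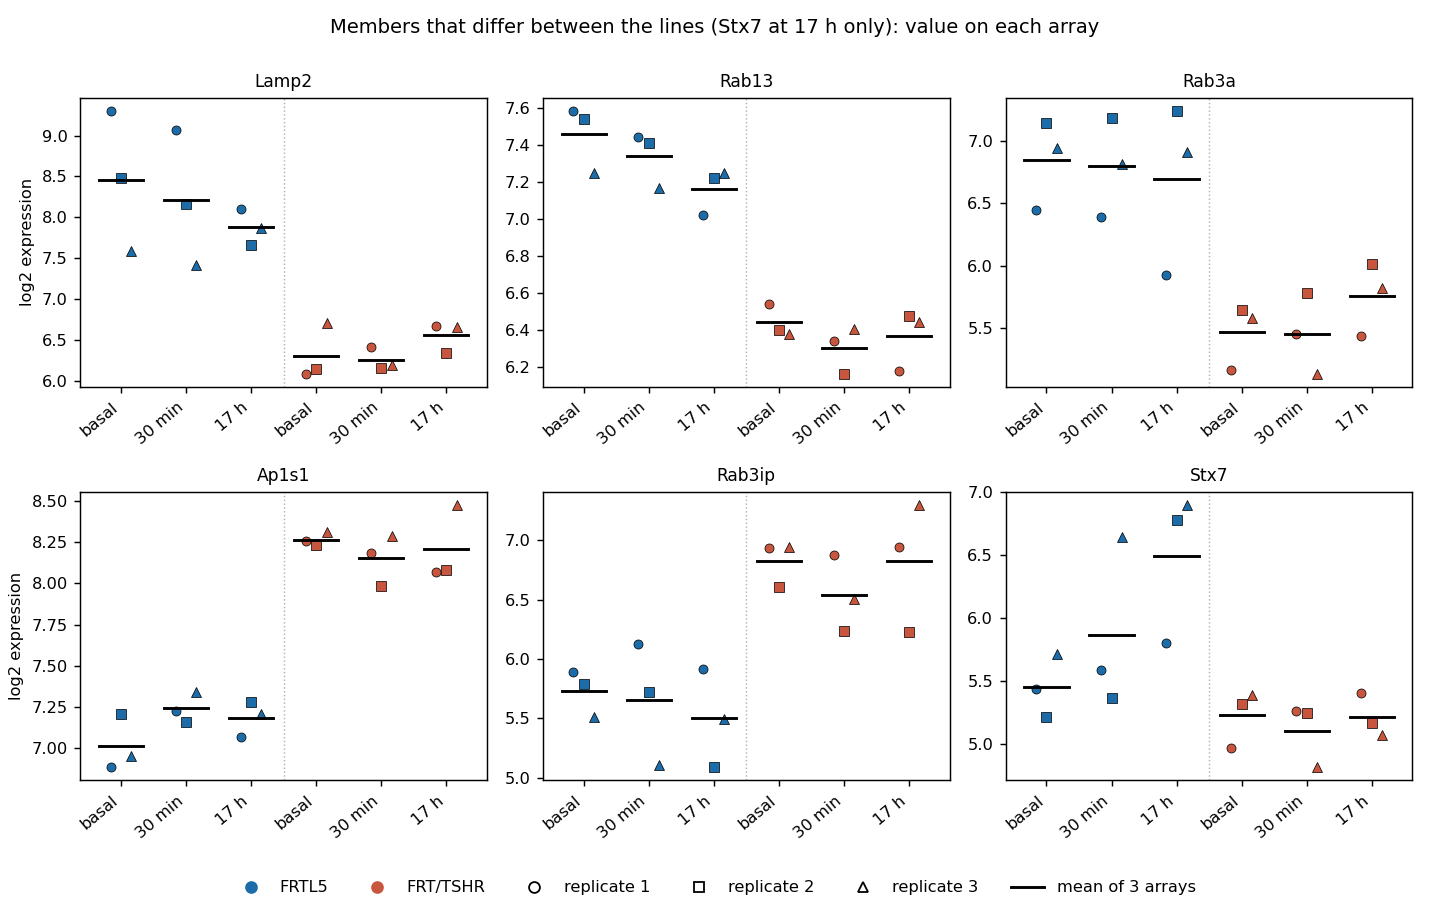
Log2 expression of 6 genes on each array (points) with group means of 3 arrays (bars); each panel has its own vertical range. Lamp2, Rab13 and Rab3a are lower and Ap1s1 and Rab3ip higher in FRT/TSHR in each state; Stx7 passed between the lines only at 17 h, where 2 of the 3 FRTL5 arrays read 6.78 and 6.90.

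Among coat, Golgi and ER genes, Copz2 and Sec11a passed in all 3 states, and the others in 1, in 2 or in none. Copz2, a zeta subunit of coatomer, read 6.60 to 7.24 in FRTL5 and 5.83 to 6.30 in FRT/TSHR, without overlap (-0.74, -0.91 and -0.59; adjusted p at most 0.0027). Copb2, another coatomer subunit, was lower at basal only (-0.51, adjusted p = 0.0067), and its second probe set was not (-0.12). Sec31a was higher at 30 min (0.75, adjusted p = 0.011) and 17 h (0.66, adjusted p = 0.027), with calls lost on leaving out 2 and 4 of 6 arrays (up to 0.068, without the FRTL5 array of replicate 3, and 0.13, without the FRT/TSHR array of replicate 1). Its other 2 probe sets passed in neither state (0.11 and 0.08, then 0.01 and 0.21). Copb1 and Copz1 passed in no state.

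Golga2 was higher in FRT/TSHR at 17 h (0.36, adjusted p = 0.048); this call was lost on leaving out any 1 of the 6 arrays (up to 0.14, without the FRTL5 array of replicate 1) and after another quantile normalization (0.41). Golga1 passed in no state. Sec11a, the catalytic subunit of signal peptidase, read 7.94 to 8.77 in FRTL5 and 7.10 to 7.82 in FRT/TSHR, without overlap (-0.86, -1.07 and -0.85; adjusted p at most 0.0063). Both its probe sets passed in each state. Sec61b, a translocon subunit, was higher at basal only (0.78, adjusted p = 0.0092, and 0.057 without the FRTL5 array of replicate 3).

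None of the 16 genes grouped as SNAREs, Sec22a among them, passed in all 3 states, against 14.8% of all probe sets. Of the 16, 7 passed in 1 or 2 states and 9 in none, against 68.4% of all probe sets in none. Vamp2, a vesicle SNARE of regulated exocytosis, was lower at basal (-0.74, adjusted p = 0.020) and 30 min (-0.75, adjusted p = 0.021); its second probe set was lower in each state (-1.03, -1.42 and -0.77). Vamp1 was lower at basal (-0.57, adjusted p = 0.0014); its second probe set was lower at basal (-0.43, adjusted p = 0.023) and at 30 min (-0.38, adjusted p = 0.046), where the representative one gave -0.14. The endosomal SNARE Stx8 was lower at basal only (-0.40, adjusted p = 0.019). The Vamp2 calls were each lost on leaving out 4 of 6 arrays (up to 0.094, without the FRTL5 array of replicate 3, and 0.13, without the FRTL5 array of replicate 2), and that of Stx8 on 3 (up to 0.083, without the FRTL5 array of replicate 2). Stx3 was higher at 30 min (0.58, adjusted p = 0.0083) and at 17 h (0.93, adjusted p = 0.00020).

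Stx7 was lower in FRT/TSHR at 17 h only (-1.28 ± 0.30, adjusted p = 0.0057), the state in which the FRTL5 values were 5.80, 6.78 and 6.90 against 5.41, 5.17 and 5.07. Snap23, a plasma membrane SNARE, was higher at 17 h (0.55, adjusted p = 0.047), its second probe set not (0.16). Stx1a was higher at 30 min (0.49, adjusted p = 0.032); its second probe set passed at basal (0.57) and 17 h (0.61) but not at 30 min (0.39). The Snap23 call was lost on leaving out 3 of 6 arrays (up to 0.24, without the FRTL5 array of replicate 1) and the Stx1a call on 4 (up to 0.12, without the FRT/TSHR array of replicate 2).

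Synaptotagmins, calcium-binding or related C2-domain proteins of vesicle exocytosis, were partly dim: 5 of 13 were in the lowest 25% of means. Syt8 read 5.65 to 5.87 in FRTL5 and 6.52 to 7.19 in FRT/TSHR, without overlap (0.98, 0.97 and 1.08; adjusted p at most 4.0e-05). Syt17 was also higher (1.01, 0.94 and 1.02) and Syt3 lower (-0.93, -0.87 and -0.80; adjusted p 0.0082, 0.014 and 0.025). The Syt3 calls at 30 min and 17 h were each lost on leaving out 4 of the 6 arrays in turn (up to 0.071, without the FRTL5 array of replicate 3, and 0.13, without the FRTL5 array of replicate 2). Of the 13, 3 passed in all 3 states (14.8% of all probe sets). Syt10 was higher at 17 h only (0.31, adjusted p = 0.046; up to 0.20 without single arrays, the highest without the FRTL5 array of replicate 1), and the other 9 passed in no state.

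Trafficking genes outside the symbol rule were read from a list of 154 regulators, tethers, endocytic proteins and cargo receptors, of which 96 were measured. At 17 h in FRTL5, 1 rose and 4 fell (5.21% of the 96, against 3.56% of all probe sets, 1.64% higher and 1.92% lower), with a median of -0.06. The transferrin receptor Tfrc, the receptor of iron uptake by endocytosis, rose from 4.85 ± 0.32 to 6.42 ± 0.48 (SD, n = 3; 1.57 ± 0.30, adjusted p = 0.0077). The synaptic vesicle glycoprotein Sv2a fell by 0.61 (adjusted p = 0.018), the SNARE disassembly adaptor Napa by 0.44 (adjusted p = 0.022) and the prenylated Rab acceptor Rabac1 by 0.68 (adjusted p = 0.025). At 17 h against 30 min 1 was higher and 3 were lower (4.21% of all probe sets passed), and in FRT/TSHR 0 passed at any time, as for all probe sets.

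Between the lines 13 of the 96 were higher and 21 lower at basal, 13 and 18 at 30 min, and 17 and 8 at 17 h. Those are 35.4%, 32.3% and 26.0% of the 96, against 25.5%, 22.8% and 20.4% of all probe sets. The smallest p belonged to the endophilin Sh3gl3, with basal means of 5.68 ± 0.18 in FRTL5 and 7.89 ± 0.17 in FRT/TSHR (SD, n = 3; a difference of 2.21 ± 0.16), and to the phosphoinositide phosphatase Synj2, with 7.57 ± 0.52 and 4.99 ± 0.25 (-2.58 ± 0.23). The Golgi SNARE Gosr2 was higher in all 3 states (1.49, 1.14 and 0.98 at basal, 30 min and 17 h), and Lrp2 (megalin), an endocytic receptor that binds thyroglobulin, was lower in all 3 (-1.02, -1.27 and -1.45). Lrp2 read 4.75 to 5.66 in FRTL5 and 3.61 to 4.18 in FRT/TSHR. The latter values lie under the 4.29 limit of the lowest 25% of means, so the sizes of its differences are uncertain.

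After removing each line's mean, the genes most like Lamp1 over the 18 arrays were Plcg1 (Pearson r 0.81), Tspo (0.81), Gtf3c1 (0.81), Khk (0.78) and Pcmtd1 (0.77). Golgb1 came at rank 24 of 4735 genes (r 0.70), Golga2 at 94 (0.60) and Lamp2 at 941 (0.23). These values describe arrays that share groups and replicate numbers.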

How the data were processed

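RNA of 18 cultures (6 groups, 3 biological replicates) was measured on 18 arrays. The deposited values are log2 expression per probe set, made by the authors with RMA (background correction, normalization across arrays, probe summary) per the submitters' processing notes; the RMA version is not given in the sources used here. Values from 2.61 to 13.58 fit a log2 scale. Scanner files were not used, so no detection calls were made.

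Of 8799 probe sets 59 controls were left out. Names came from the platform annotation (7006 probe sets with 1 symbol, 308 with several, 1426 with none); all 94 members were matched to GRCr8 by gene number. Using all arrays, 6 group means were estimated with limma 3.58.1 (R 4.3.3; 12 residual and 3.597 prior degrees of freedom), two-sided, with Benjamini-Hochberg adjustment over 8740 probe sets within each of 11 comparisons and a threshold of 0.05. Replicate error was a median SD of 0.169 for the members and 0.155 for all probe sets; precision is limited by the number of arrays. The computation was tested on data simulated with independent errors on each array. That test held no deviations shared between arrays and did not cover the block.

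The labels give all groups replicate numbers 1 to 3. Within each line every same-numbered correlation of deviations was above 0.1 (lowest 0.148 in FRTL5 and 0.158 in FRT/TSHR). For FRTL5 number 1 the correlations were 0.69 to 0.80, and for numbers 2 and 3 they were 0.15 to 0.47. Deviations were taken from group means, so an offset of the arrays numbered 1 alone can also raise the other correlations. On this ground the number within the line was added as a block, as a fixed term within lines and as a random one (correlation 0.355) between lines. Named genes were Lamp1, Golgb1 and Rab5a, up to 10 passing members at each end per comparison whose groups did not overlap, the 3 smallest p where none passed, members described with their role group, up to 4 listed partners per comparison by p, markers, and the 5 genes most like Lamp1. The members and lists were chosen with earlier results of these data known. Alternatives were the block, only the arrays compared, leaving out arrays, quantile normalization, a filter on the dimmest 25% of probe sets, an intensity trend, and any probe set of a gene.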

Additional observations from a re-analysis of the deposited data

Results flagged for a closer look

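The TSH effect on Golgb1 at 17 h differed between the lines: in FRT/TSHR minus FRTL5 it was 1.16 on the log2 scale, by limma's test of the difference itself (adjusted p = 0.012). All 3 FRTL5 arrays at 17 h were below their basal arrays, and all 3 FRT/TSHR arrays at 17 h were above theirs. In FRT/TSHR 0 of 8740 probe sets passed at 17 h against basal. The Golgb1 mean in basal FRT/TSHR was already low, at 6.78, against 7.70 in FRTL5 at basal and 6.79 in FRTL5 at 17 h. The second probe set gave 1.08 (adjusted p = 0.073), and its part in the call was not tested further.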

How the results depend on the processing

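At 17 h against basal in FRTL5, where 2 members passed, 11 passed with the replicate block, 0 with only the arrays compared, and 1 after quantile normalization or with an intensity trend; leaving out single arrays gave 1 to 2. At 17 h against 30 min (2 members), 8 passed with the replicate block, 0 with only the arrays compared, 0 without the FRTL5 arrays numbered 1, and 1 with the filter on dim probe sets or an intensity trend; leaving out single arrays gave 0 to 1. For the TSH effect at 17 h between lines (1 member) the replicate block gave 2, and leaving out single arrays gave 1. Between the lines, leaving out single arrays gave 24 to 25 members at basal (of 27), 19 to 24 at 30 min (of 26) and 17 to 24 at 17 h (of 27); the calls kept in every such fit were 21, 15 and 16. With the block these counts were 29, 25 and 29, with 0, 1 and 1 of the calls lost. Without the FRTL5 arrays numbered 1 they were 28, 27 and 25, with 3, 2 and 7 lost. Counting any probe set of a gene gave 29, 28 and 31. With only the arrays compared 3, 5 and 9 calls between lines were lost, a fit with fewer arrays. No named result of a representative probe set reversed direction under the other settings, but 1 other Lamp1 probe set (lines at 30 min, 0.03 against -0.91) and 1 other Ap2b1 probe set (lines at 17 h, -0.03 against 0.48) had the opposite sign without passing. The block changed no other count by over 1.5 times. Signal over background limits the 10 members in the lowest 25% of means, and 3 arrays a group limit all. Apart from the smaller number of arrays in some fits, the cause of each change was not tested.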
